A study of Mus musculus with 5 samples.

Results

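Hepatocytes recovered 24 h after partial hepatectomy, an operation that takes out most lobes of the organ, were compared with hepatocytes of an adult control across all genes. A barcode counted as a hepatocyte when it held at least 5000 unique molecular identifiers (UMIs, each marking 1 captured RNA molecule), when 10 to 30% of them came from the 13 mitochondrial genes, and when Alb, Apoa1 and Ttr together gave at least 1%. That rule kept 925 of 2639 droplets of at least 5000 UMIs in the adult control and 1170 of 2985 at 24 h, 2095 of 5624 in the pair and 5691 hepatocytes in the series. The study made 10x v3 libraries of perfused, dead-cell-depleted liver cells from C57BL/6J mice, in 5 groups with 1 library each: adult control, 24, 48 and 96 h after hepatectomy at 8 weeks of age, and unoperated postnatal day 14 (P14). The title and source of the control call it an adult control and it carries no treatment tag, whereas the shared treatment text counts it among the operated adults. It was taken as the control. The library code in the descriptions is 2 for the control and 1 for the rest, so that code and the operation cannot be told apart. The number of animals behind a library, their sex and the hour of collection are not given. With 1 library a side the spread between animals is unknown, and no p-value is given. Intervals in brackets are exact Poisson intervals at 95% (for a ratio, the exact conditional interval) and cover counting error only.

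Hepatocytes are the main cell of the liver: they make plasma proteins, urea and bile acids, handle fat and sugar, and break down drugs and hormones. They rarely divide in a healthy adult, but after the loss of liver mass most of them leave the resting state, copy their DNA and divide, which restores the mass of the organ. Cytokines such as interleukin-6 act on hepatocytes in the early hours, and the acute phase response, in which hepatocytes secrete more inflammatory plasma proteins, is a known part of that signal.

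The hepatocytes summed to 17750324 UMIs in the control and 25318609 at 24 h, with medians of 18527 and 19562 UMIs and 3483 and 3554 genes a cell. Median mitochondrial shares were 25.3% and 23.8%. No barcode position in the matrices was shared between the 2 sets of cells, and the barcode names themselves were not compared. The background was not alike. Free RNA, read in empty droplets, came to 1328 UMIs a droplet in the control and 670 at 24 h. This equalled 7.17% and 3.42% of the UMIs of a median hepatocyte. Free RNA was not subtracted from single cells, so its part in the shares of cells with a gene was not tested. Just below the 1% line for Alb, Apoa1 and Ttr lay 2 cells of each library, and just above it lay 4 and 5. Alb, Apoa1 and Ttr chose the cells, so only the other 10 hepatocyte markers bear on the label. All 10 were above 10 CPM (UMIs of a gene scaled to a library total of 1000000, mitochondrial genes left out) in both libraries, among them the transcription factor Hnf4a at 389 and 337 CPM. None of the endothelial, macrophage, monocyte or dendritic, T or NK, B and mesenchymal markers reached a mean of 10 CPM over both libraries. The 12 endothelial markers together summed to 31.8 and 25.4 CPM, and the 11 macrophage markers to 9.39 and 1.33 CPM, with Timd4 and Folr2 at 0 at 24 h. The 9 neutrophil markers summed to 11.6 CPM in the control and 108 CPM at 24 h, led by S100a9 (5.63 to 52.4 CPM) and S100a8 (3.75 to 37.7 CPM), while Ly6g had 0 and 8 UMIs in all. The cholangiocyte markers Epcam, Krt19, Krt7 and Cldn4 had no UMI in either library, while Spp1 (17.6 to 67.9 CPM) and Sox9 (18 to 33.8 CPM), which that list also holds, did. The 7 erythroid markers summed to 722 and 523 CPM, with 5 past 10 mean CPM and Hbb-bs highest (426 to 308 CPM). Free RNA held more Hbb-bs than the hepatocytes, at 631 and 1122 CPM. The part of neutrophil and erythroid RNA in the results was not tested. Leaving out cells with at least 3 UMIs of other-cell markers (895 and 1088 cells remained) gave the same sign for all genes chosen by the naming rule. Few cells were left out, and the log2 ratio of S100a8, 24 h over control, was 2.83 without them and 3.02 with them. This step thus does not remove neutrophil RNA.

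The sequences upstream of the genes with the highest ratios and of a helicase family are shown first, because these genes belong to families with well-known control elements. The windows are the 250 bases before the RefSeq start (build GRCm38.p6, gene strand), and capitals mark matches on either strand to the metal response element, written TGCACNC or TGCGCNC, the core bound by the zinc-sensing factor Mtf1. By GENCODE M21 on GRCm38, used for all gene positions here, Mt1 lies at chr8:94179082-94180327 and Mt2 at chr8:94172664-94173568 (both plus strand), next to each other, and the windows span chr8:94178839-94179088 and chr8:94172368-94172617.
Mt1: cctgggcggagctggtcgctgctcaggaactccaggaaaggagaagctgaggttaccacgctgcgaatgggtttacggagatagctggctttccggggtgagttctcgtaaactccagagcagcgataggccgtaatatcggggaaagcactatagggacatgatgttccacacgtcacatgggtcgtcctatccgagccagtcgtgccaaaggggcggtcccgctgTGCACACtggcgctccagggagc
Mt2: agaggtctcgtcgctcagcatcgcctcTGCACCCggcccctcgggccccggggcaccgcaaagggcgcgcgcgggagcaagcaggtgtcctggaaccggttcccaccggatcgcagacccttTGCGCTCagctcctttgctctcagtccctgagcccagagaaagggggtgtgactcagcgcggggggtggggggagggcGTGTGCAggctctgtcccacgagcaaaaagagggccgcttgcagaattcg
The Mt1 window held 1 match and the Mt2 window 3, or 3 and 4 when the 50 bases after the start were added, where 1.97% of 32851 windows genome-wide held at least 3. For genes of DNA replication the motif was that of the E2F factors, searched as TTTGGCGC, TTTCCCGC, TTTGCCGC and TTTCGCGC. Mcm5 and Mcm6 encode subunits of the replicative helicase, and Mcm10 a replication initiation factor that went the other way in these data. Their windows were chr8:75109259-75109508 (plus strand), chr1:128359706-128359955 and chr2:5012792-5013041 (both minus strand).
Mcm5: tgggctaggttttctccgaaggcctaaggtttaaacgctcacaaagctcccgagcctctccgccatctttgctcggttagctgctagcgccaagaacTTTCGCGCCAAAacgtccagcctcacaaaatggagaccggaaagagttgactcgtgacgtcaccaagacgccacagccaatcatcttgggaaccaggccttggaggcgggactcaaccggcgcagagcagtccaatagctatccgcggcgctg
Mcm6: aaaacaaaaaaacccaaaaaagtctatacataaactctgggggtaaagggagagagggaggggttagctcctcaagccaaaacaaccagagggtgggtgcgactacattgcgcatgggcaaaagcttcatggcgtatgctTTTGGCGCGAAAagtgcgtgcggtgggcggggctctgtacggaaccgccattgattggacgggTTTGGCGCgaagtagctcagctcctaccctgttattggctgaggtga
Mcm10: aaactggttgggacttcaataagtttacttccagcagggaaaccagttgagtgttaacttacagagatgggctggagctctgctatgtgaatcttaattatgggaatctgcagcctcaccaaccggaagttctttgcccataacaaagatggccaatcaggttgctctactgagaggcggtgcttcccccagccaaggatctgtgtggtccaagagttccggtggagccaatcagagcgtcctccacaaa
Mcm5 had 2 overlapping matches, Mcm6 had 3 of which 2 overlap, and Mcm10 had none in these letters and this window. E2F letters stood in 8 of 24 windows of the origin licensing list and in 5 of 27 of the replication-coupled chromatin list. They stood in 4 of 32 of the replication fork list and in 2 of 48 of the mitosis list, against 1.86% of all windows. The CHR element of mitotic promoters, searched as TTTGAA and TTCGAA, was in 39.6% of mitosis windows and 17.1% of all windows, and the CCAAT box in 77.1% and 33.8%. The CCAAT box was also in 74.1% of replication-coupled chromatin, 56% of clock and 54.2% of licensing windows, but in 12% of acute phase windows. Metal response letters were in 65.6% of replication fork and 39.6% of mitosis windows and in 8% of acute phase windows, against 21.4% of all. STAT letters, TTCNNNGAA, were in 32% of 25 acute phase windows against 7.02% of all. Such matches describe letters, and whether a factor was bound there was not measured.

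Between the libraries, 7057 genes averaged at least 10 CPM, and 66.2% of them lay within 1.5-fold of each other. At 24 h, 486 genes (6.89%) were at least 2-fold higher and 471 (6.67%) at least 2-fold lower, and 123 (1.74%) and 64 (0.907%) passed 4-fold. Every count of list members past 2-fold below is to be read against the 6.89% and 6.67%. Ratios are log2((24 h CPM + 1)/(control CPM + 1)), and their median over all genes was 0.0038, so the values below need no shift for scaling. Counts of members higher or lower by any amount are to be read against that median, as the share of all genes was not counted. Just past the 2-fold line lay 37 higher and 39 lower genes within 0.05 of it, and just short of it 47 and 51. A total of 23.2% of the non-mitochondrial UMIs changed hands between genes, and the 12 genes with the largest gains made up 34.5% of the gain. These were the serum amyloids Saa2 and Saa1, Orm1, Mt1, Lcn2, Fga, Mt2, Fgb, Fgg, Hpx, Rpl41 and Apoc3. The 12 largest losses (35.04% of the loss) were Mup11, Mup20, Alb, Mup3, Serpina1e, Mup7, Mup17, Serpina1c, Scp2, Apoe, Eef1a1 and Cat.

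**Figure D1:**
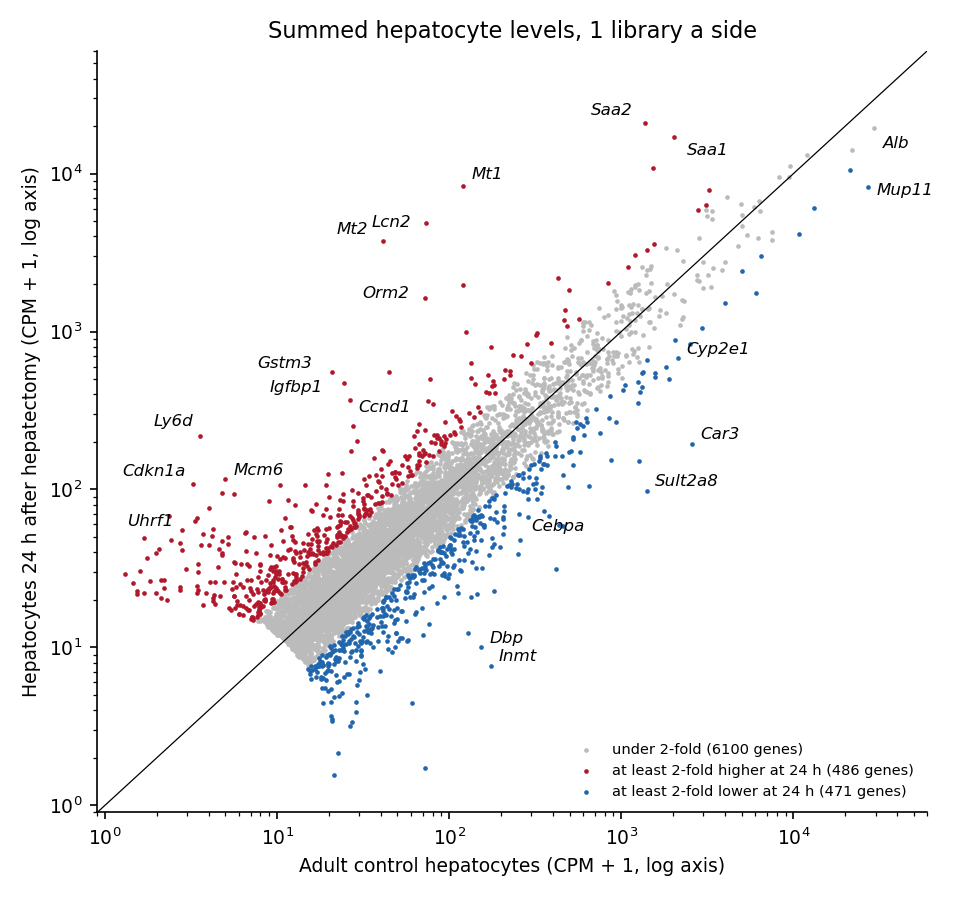
Summed level of each of 7057 genes in adult control hepatocytes (x axis, CPM + 1) and in hepatocytes 24 h after hepatectomy (y axis, CPM + 1), both log axes; 1 point is 1 gene, red and blue mark at least 2-fold higher (486) and lower (471), and the line is equality. Mt1, Mt2 and Lcn2 lie farthest above the line for their level, and Car3, Sult2a8, Inmt and Dbp far below it.

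The metallothioneins, small cysteine-rich proteins that bind zinc and copper, had the highest ratios of any list. Mt1 measured 119 CPM (114 to 125) in the control and 8399 CPM (8359 to 8439.9) at 24 h, then 6980.2 at 48 h and 251 at 96 h, against 261 in P14. Mt2 measured 39.9, 3759, 2576, 53.7 and 15.2 CPM in the same order. The 24 h and 48 h libraries were thus far above the other 3 for both genes. Against the control, Mt1 was 70.4-fold (67 to 74) and Mt2 94.1-fold (86.4 to 103) higher at 24 h, while Mt3 and Mt4 stayed at or under 1.38 CPM. Cell by cell, with each cell thinned to 5000 UMIs, the 4 genes gave a median of 0 UMIs in control cells (highest 7) and 41 at 24 h (lowest 13). The counts of the 2 sets of cells thus did not overlap, with free RNA included. Free RNA of empty droplets held 85.2 CPM of Mt1 in the control and 22047 CPM at 24 h, above the hepatocyte level, and lymphocytes of the 24 h library (droplets with at least 3 lymphocyte markers) held 3554 CPM. With the free-RNA profile subtracted from the sums the Mt1 ratio was 5.98 against 6.13. It was not subtracted cell by cell, so the part of free RNA in the lowest 24 h cells was not tested. Other genes of zinc and copper handling moved less: of 15 such genes past the filter only Cox17, a copper chaperone, passed 2-fold (68.7 to 162 CPM), the zinc importer Slc39a14 stood at 229 and 381 CPM, and Mtf1 itself at 23.7 and 18.3 CPM.

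The acute phase list held 4.09% of non-mitochondrial hepatocyte UMIs in the control and 11.9% at 24 h. Its share was 14.9%, 3.92% and 3.12% at 48 h, 96 h and in P14. Of its 28 genes past the filter (of 32), 18 were at least 2-fold higher and none lower, with a median of 1.25. Lcn2 (chr2:32384633-32388252), which encodes an iron-siderophore binding protein, measured 72.3 CPM in the control and 4874 at 24 h, then 3307 at 48 h and 229 at 96 h, against 51.3 in P14, a 67.4-fold difference (63.3 to 71.9) at 24 h. Neutrophils also make Lcn2, and neutrophil markers were higher at 24 h as given above. Their part in the Lcn2 value was not tested. Saa2 went from 1365 CPM in the control to 20968 at 24 h and 31492 at 48 h, with 856 at 96 h and 5.44 in P14. At 24 h Saa2 stood above Alb (19565 CPM), and its neighbour Saa1 went from 2029 to 17157 CPM. Orosomucoids and pentraxins followed, with Orm2 from 71.2 to 1640 CPM and Apcs, serum amyloid P, from 119 to 1975 CPM. Hamp, the hormone that blocks iron export, stood at 429 and 2188 CPM, while the iron exporter Slc40a1 was lower (61 to 27.1 CPM) and the transferrin receptor Tfrc higher (15.5 to 54 CPM). The 3 fibrinogen chains were closer to 2-fold, Fga from 3241 to 7919.8, Fgb from 3094 to 6365 and Fgg from 2798 to 5873 CPM. Every 24 h cell held at least 242 acute phase UMIs of 5000, above the 95th percentile of control cells (225). Other secreted defence proteins did not share the direction: the complement list had a median of −0.48 with 3 of 24 genes at least 2-fold lower and none higher, where 6.67% of all genes were lower and 6.89% higher, and coagulation factors a median of −0.48.

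Receptors and feedback genes of the cytokine pathway were mixed. The interleukin-1 receptor Il1r1 went from 35.7 to 157 CPM, its decoy ligand Il1rn from 4.58 to 19.98 and the transcription factor Cebpb from 298 to 628. Lifr, the receptor of leukaemia inhibitory factor, went the other way, from 323 CPM (4304 UMIs) to 86.2 CPM (1683 UMIs), as did the STAT5 target Cish (50.8 to 10.5 CPM). Socs3, the feedback inhibitor of interleukin-6 signalling, stood at 69.7 and 40.4 CPM. Osmr, the oncostatin M receptor, averaged under 10 CPM and held 6 UMIs in the control and 341 at 24 h. Of the 3 members under the filter it was the only 1 that was higher. Of 20 genes of the list past the filter 5 were at least 2-fold higher and 4 lower, against 6.89% and 6.67% of all genes.

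Genes of DNA replication and mitosis were higher at 24 h as whole lists. Hepatocytes of the control had few of these transcripts, so members passed the filter of 10 mean CPM mainly through the 24 h library and had to differ, and counts over members that passed are given as descriptions. Summed over all listed members, filtered or not, mitosis genes went from 429.7 to 2063 CPM (58 genes), replication fork genes from 301 to 858 CPM (32 genes) and origin licensing genes from 251 to 644 CPM (24 genes). Of the licensing sum Mcm10, which went the other way, alone held 133 CPM in the control and 19.8 CPM at 24 h. Members under the filter were also higher, all 34 of the mitosis list, all 15 of the fork list, all 9 of the licensing list and all 10 of the replication-coupled chromatin list. With every gene of at least 1 UMI kept, the medians of these lists were 2.73, 1.64, 1.96 and 1.95. The share of all genes under the filter that were higher was not counted. Among other lists, 6 of 7 antioxidant (Nrf2) genes under the filter, 7 of 11 p53 targets, 7 of 16 cytoskeleton and 1 of 5 complement genes were higher.

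In the passage out of rest, Ccnd1, the cyclin that opens the G1 phase, measured 25.5 CPM in the control and 369 at 24 h, then 141 at 48 h and 101 at 96 h, against 106 in P14. It was at its highest at 24 h, 14.5-fold (13 to 16.2) over the control. The E-type cyclins followed at lower levels, Ccne1 from 2.4 to 23.3 and Ccne2 from 1.73 to 23 CPM, with the transcription factor E2f1 from 4.58 to 33.9 CPM. Cdkn1a (chr17:29090976-29100727), which encodes the cyclin-dependent kinase inhibitor p21, was higher as well, at 2.25 CPM (30 UMIs) in the control and 107 CPM (2079 UMIs) at 24 h. Its level was 76.9 CPM at 48 h, 14.4 at 96 h and 69.99 in P14. Other targets of p53 did not move with it as a group: the list median was 0.29, with 3 of 15 higher (Cdkn1a, Gdf15 and Trp53inp1) and 2 lower (Gadd45a and Gadd45g), while Mdm2 stood at 25.5 and 38 CPM. Cdkn1a UMIs were found in 33.0% of the 803 cells with at least 3 replication genes and in 25.4% of the 71 cells with none. At 2000 UMIs a cell, 12.9% of 24 h hepatocytes and 6.53% of lymphocytes of that library held it.

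Origin licensing, the loading of the helicase onto DNA, was led by Mcm6 in log2 ratio and in 24 h level. Mcm6 measured 3.98 CPM in the control and 116 at 24 h, then 59.7 at 48 h and 22.7 at 96 h, against 44.9 in P14. The 24 h library was highest, 29.1-fold (22.2 to 39) over the control. The helicase subunits Mcm2 to Mcm5 lay between 14.4-fold (Mcm2, 3.0 to 43.2 CPM) and 30.1-fold (Mcm3, 1.8 to 54.3 CPM) over it, and Mcm7 was 7.13-fold over it (5.56 to 39.6 CPM). Uhrf1 and Hells, which maintain DNA methylation and chromatin behind the fork, went from 0.676 to 48.1 and from 1.35 to 67.1 CPM. The nucleotide-supplying enzyme subunit Rrm2 went from 3.75 to 94.2 CPM and the sliding clamp Pcna from 18.3 to 106 CPM. Of the 15 licensing genes past the filter, Mcm10 was the only gene at least 2-fold lower and was chosen for mention after its values were seen. It measured 133 CPM in the control and 19.8 at 24 h, then 24 at 48 h and 95.8 at 96 h, against 7.36 in P14. In cells thinned to 5000 UMIs it was present in 40.6% of control and 6.58% of 24 h hepatocytes, and at 2000 UMIs in 18.4% of control hepatocytes against 3.1% of control lymphocytes.

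Mitosis genes were above the control at 24 h and, for the proliferation marker Mki67, higher again at 48 h: 1.43 CPM in the control and 46.7 at 24 h, then 119.9 at 48 h and 32.1 at 96 h, against 51.1 in P14. The DNA-untangling enzyme Top2a ranked the adult libraries alike, with 1.73 CPM in the control and 44.9, 80.9 and 15.3 CPM at 24, 48 and 96 h. In P14 it measured 38.7 CPM, below its 24 h level, whereas Mki67 in P14 was above its own. Of 24 mitosis genes past the filter 23 were at least 2-fold higher, the largest being the kinase Pbk (1.05 to 41.1 CPM). To count cells, each was thinned to 5000 UMIs, and genes of the replication and mitosis lists under 20 CPM in the control were used, a choice made after the data were seen that favours a low share in the control. At least 3 replication genes were found in 8.86% of control hepatocytes (7.11 to 10.9%, exact binomial) and in 68.6% (65.9 to 71.3%) at 24 h. At least 3 mitosis genes were found in 2.38% (1.5 to 3.58%) and 32.4% (29.7 to 35.2%). At 48 h the shares were 56.5% and 53.3%, at 96 h 18.8% and 18.9%, and in P14 30.2% and 19.3%. The share with replication genes was thus highest at 24 h and the share with mitosis genes at 48 h, but free RNA moved with both. The 69 counted replication genes summed to 297 CPM in hepatocytes and 346 CPM in free RNA of the control, 1564 and 1489 CPM at 24 h, and 1116 and 1094 CPM at 48 h. The 55 counted mitosis genes summed to 145 and 167 CPM in the control, 1214 and 1064 CPM at 24 h, and 2975 and 2131 CPM at 48 h. At 2000 UMIs a cell at least 3 replication genes were found in 1.19% of control hepatocytes and 29.8% of control lymphocytes, and at 24 h in 35% and 39.2%. For mitosis genes these shares were 0.649% and 9.31%, and 17.9% and 15.1%. Lymphocytes held these genes in the control library already, so they give no clean background, and the shares are not read as shares of cycling cells. The part of free RNA in them was not tested.

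**Figure D2:**
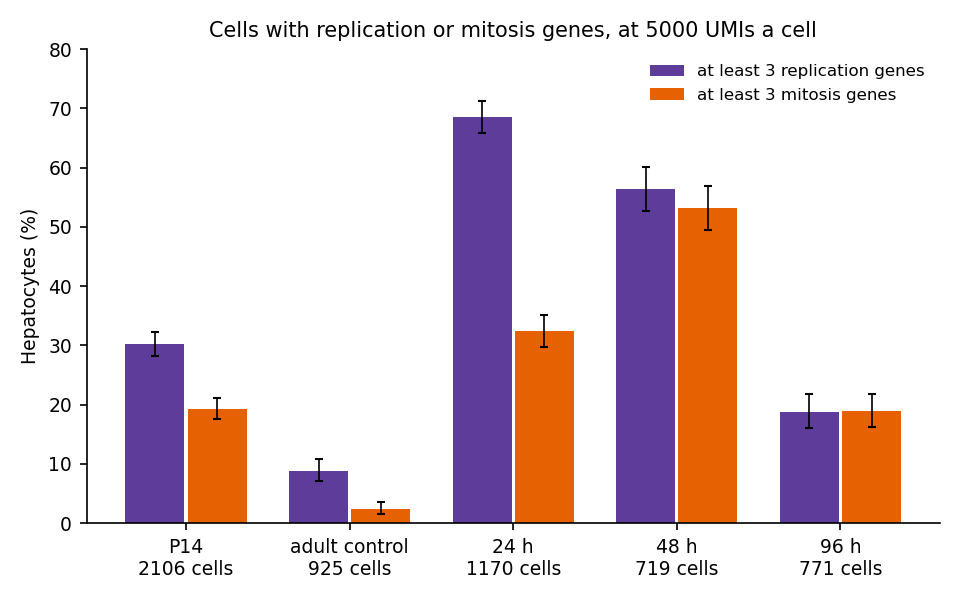
Share of hepatocytes (y axis, %) with at least 3 replication genes (purple) or at least 3 mitosis genes (orange) in each of the 5 libraries, 1 per group, after thinning each cell to 5000 UMIs; error bars are exact binomial 95% intervals over cells, which leave out the spread between animals. The share with replication genes is highest at 24 h (68.6%) and that with mitosis genes at 48 h (53.3%); free RNA also holds these transcripts.

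The comparison was repeated without these cells, in those with fewer than 3 mitosis genes and fewer than 2 replication genes, 648 in the control and 213 at 24 h. In these cells the licensing list had a median of 0.24 and the mitosis list 0.63, which the choice of cells lowers. The acute phase list stood at 1.38 (all cells 1.25), the major urinary proteins at −0.93 (−0.90), fatty acid oxidation at −0.74 (−0.68) and the cytoskeleton list at 1.05 (1.1). Mt1 stood at 6.19 (6.13), Cdkn1a at 4.93 (5.05) and Ccnd1 at 3.1 (3.81). A cell counted here may still be cycling, since few of these genes are seen at 5000 UMIs. Periportal genes went from −0.54 to −0.06 and Glul from −1.15 to 0.0046 in these cells. Within the 24 h library, cells with at least 3 replication genes had a median of 415 acute phase UMIs of 5000, and cells with none had 475, with metallothionein UMIs at 40 and 47 and fatty acid oxidation UMIs at 39 in both.

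**Figure D3:**
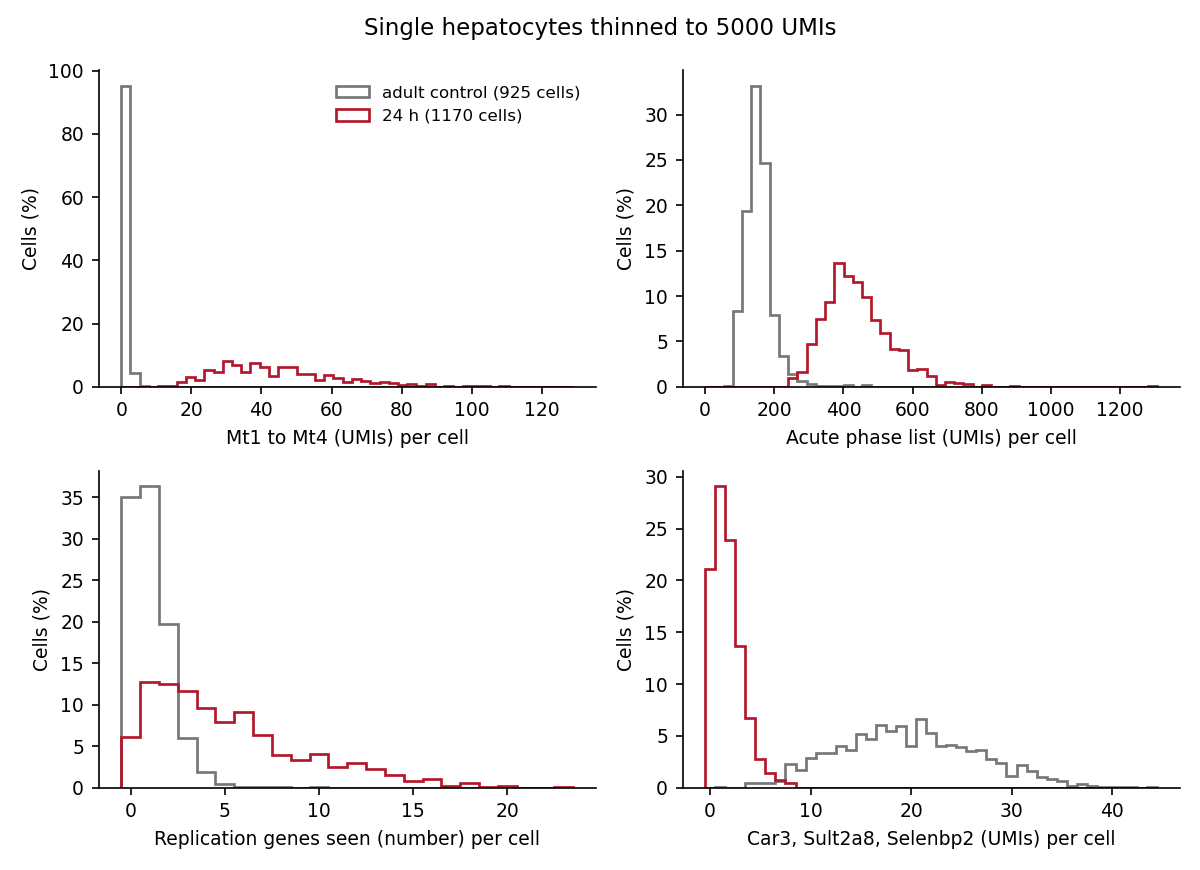
Distribution over single hepatocytes, thinned to 5000 UMIs, of metallothionein UMIs, acute phase UMIs, the number of replication genes seen and the summed UMIs of Car3, Sult2a8 and Selenbp2 (x axes), as percent of cells (y axes), in the adult control (grey, 925 cells) and at 24 h (red, 1170 cells). Metallothionein UMIs do not overlap (at most 7 against at least 13 a cell), whereas the replication gene counts overlap widely; free RNA was not subtracted from these cells.

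Genes of the cytoskeleton were higher at 24 h as a sum over all 42 listed, at 3492 and 7638 CPM. Of 26 actin, tubulin and keratin genes past the filter, 13 were at least 2-fold higher and none lower (median 1.1). Members low in the control, such as Tubb6, passed the filter through the 24 h library and had to differ. Of the 16 members under the filter only 7 were higher, and 2 members had no UMI in either library. Krt8, the keratin of the hepatocyte skeleton, measured 133 CPM in the control and 630.3 at 24 h, then 394 at 48 h and 258 at 96 h, against 169 in P14, and its partner Krt18 78.9 and 348 CPM at the 2 main points. Among tubulins, Tubb2a went from 26 to 173 CPM and Tubb6 from 3.75 to 38.7 CPM. Ribosome biogenesis genes had a median of 0.65, led by Nop58 (11.7 to 79.2 CPM), a core protein of the particles that methylate ribosomal RNA, and 41 of 43 were higher by any amount. The 81 ribosomal proteins themselves had a median of 0.02 with none past 2-fold in either direction. Nuclear-encoded respiratory chain genes had a median of 0.44 with 8 of 77 at least 2-fold higher, and the 37 proteasome genes 0.48 with 2, against the 6.89% of all genes given above. A further set took droplets with under 5% mitochondrial UMIs, at least 5000 UMIs and at least 1% from Alb, Apoa1 and Ttr (144 and 307). Which cells these droplets hold was not tested. The median of all genes there was −0.59. In this set the medians turned to −0.11 for ribosome biogenesis and −0.23 for the proteasome and stood at 0.05 for the respiratory chain. The elongation factor Eef1a1 was lower (5018 to 2419 CPM), and the initiation factor Eif1a was higher (57.4 to 162 CPM).

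Some of the largest single changes lay outside these programs. Gstm3 (chr3:107963696-107969283), a glutathione transferase, measured 19.8 CPM in the control and 554 at 24 h, then 61.6 at 48 h and 73.9 at 96 h, against 5.06 in P14, so the 24 h library stood far above the other 4. Ly6d, a surface protein best known from lymphocyte precursors, measured 2.55, 216, 39.6, 7.22 and 1.32 CPM in that order. At 2000 UMIs a cell Ly6d was found in 20.8% of 24 h hepatocytes and in 29% of lymphocytes of that library (medians of 19562 and 4678 UMIs before thinning). Lymphocytes held 415 and 666 CPM of Ly6d in the control and at 24 h, and free RNA 2.32 and 178 CPM, so lymphocytes give no background for this gene. Without cells holding other-cell markers its log2 ratio was 5.93 against 5.93, and in droplets with under 5% mitochondrial UMIs 2.88. Control hepatocytes had Ly6d in 0.324% at 2000 UMIs, against 21.3% of control lymphocytes. At 24 h and 2000 UMIs a cell, Gstm3 was in 51.3% and 17% of hepatocytes and lymphocytes. Id1, a target of BMP signals, measured 3.0, 75.1, 11, 11.8 and 4.35 CPM, and Id3 55.7 and 155 CPM at the main points. Igfbp1, which binds insulin-like growth factors, went from 23.6 to 468 CPM, with 2075 CPM in P14. Across the 5 libraries, 26 of 7063 genes were at least 2-fold above every other library at 24 h and 12 at least 2-fold below. Gstm3, Id1, Ly6d, Uhrf1, Hells, Ccnd1, Mcm2, Mcm3, Mcm4, Oat and Il1r1 were among those above, and Inmt, Serpina6, Ces1d and Cyp2c37 among those below.

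**Figure D4:**
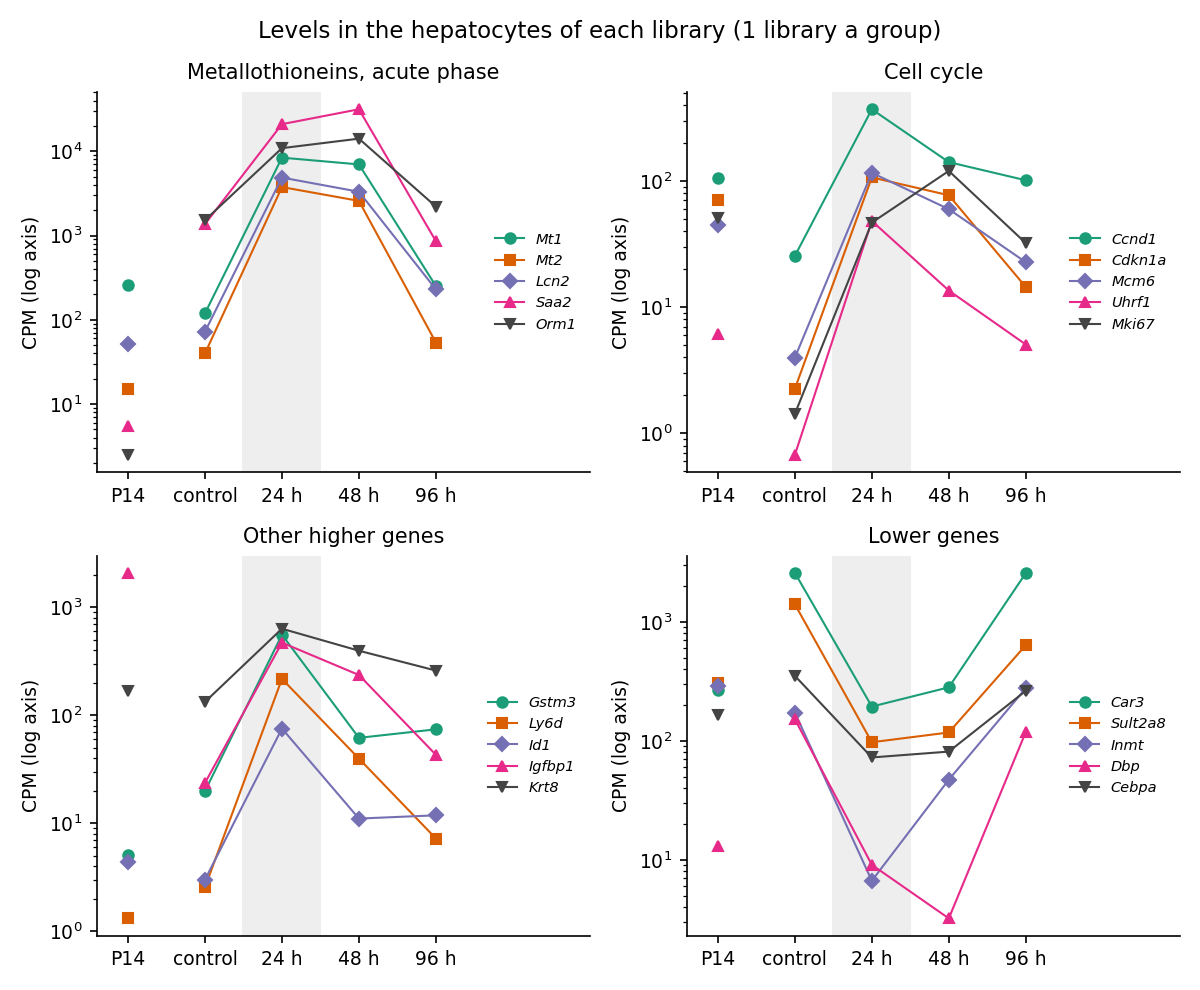
Level of 20 genes (y axes, CPM, log axes) in the hepatocytes of each library (x axis: P14, adult control, and 24, 48 and 96 h after hepatectomy; 1 library a group, no error bars), in 4 panels, with the 24 h library shaded. Mt1, Mt2 and Lcn2 are high at 24 h and 48 h, Gstm3, Ly6d and Id1 peak at 24 h, and Car3, Sult2a8, Inmt and Dbp are low at 24 h.

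Enzymes and secreted proteins of the mature hepatocyte were among the lower genes. Car3, carbonic anhydrase 3, measured 2589 CPM (2561 to 2616) in the control and 194 (188 to 200.4) at 24 h, then 282 at 48 h and 2573 at 96 h, against 269.8 in P14. The control and the 96 h library were high and the other 3 low, and the control was 13.3-fold above 24 h. The sulfotransferase Sult2a8 measured 1408, 97.4, 118, 637 and 309 CPM in the same order, and Selenbp2 1259, 149.7, 161, 566 and 175 CPM. In cells thinned to 5000 UMIs, Sult2a8 was found in 98.2% of control and 30.3% of 24 h hepatocytes, and at 2000 UMIs in 13.4% of 24 h hepatocytes against 3.69% of lymphocytes. Inmt (chr6:55170626-55175043), a methyltransferase of indole amines, had the lowest ratio of all 7057 genes but the long noncoding RNA AC169509.3 (71 to 0.717 CPM). It stood at 173 CPM in the control and 6.66 at 24 h (2303 and 130 UMIs), with 47.1, 277 and 287 at 48 h, 96 h and in P14. Free RNA moved alike, from 205 to 9.5 CPM for Inmt and from 3019.9 to 182 CPM for Car3, and with it subtracted the ratios were −4.5 and −3.7.

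The major urinary proteins, lipocalins that carry pheromones, held 9.1% of non-mitochondrial hepatocyte UMIs in the control and 4.08% at 24 h. This was the largest loss of any list, and the share was 1.54% at 48 h and 1.34% at 96 h. Of 14 genes past the filter 7 were at least 2-fold lower and none higher, from Mup17 (6046 to 1745 CPM) to Mup21 (213 to 376 CPM) at the other end. In droplets with under 5% mitochondrial UMIs the list median was −0.19 against −0.90, and the log2 ratios turned for Mup20 (0.37 against −1.03) and Mup3 (0.23 against −0.64). The median of all genes there was −0.59. The urinary protein genes are near-identical copies, so the split of reads among them is uncertain. Genes of the growth hormone axis, many of them targets of STAT5b, had the lowest median of any list, −1.14. Of 23 past the filter 13 were at least 2-fold lower and 2 higher. Among the lower were the steroid dehydrogenase Hsd3b5 (180.2 to 21.7 CPM), the repressor Bcl6 (49 to 10.04 CPM) and the receptor Ghr (596 to 252 CPM). Igf1 itself, named after its value was seen, stood at 1083 and 1218 CPM. Y-linked transcripts were present in both libraries and Xist had 0 UMIs in both, so these genes gave no sign of a different sex in the pair. P14 differed from the 4 adult libraries, with Xist at 840.4 CPM and Ddx3y, Eif2s3y and Kdm5d at 0, so age and sex cannot be told apart where P14 is set beside them.

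Fat-burning genes were lower as a list, 41 of 44 by any amount: of 44 fatty acid oxidation and ketogenesis genes past the filter 15 were at least 2-fold lower and none higher (median −0.68). Acsl1, which activates fatty acids, went from 929.5 to 267 CPM, the peroxisomal thiolase Acaa1b from 435 to 58.2 and the regulator Ppara from 96.3 to 41.2 CPM. Fatty acid synthesis genes were lower too (median −0.52, 6 of 24), with Thrsp from 488 to 103 CPM. Cholesterol synthesis went the other way (median 0.65, 3 of 25 at least 2-fold higher and none lower), among them the squalene epoxidase Sqle (88.9 to 202 CPM) and the HMG-CoA synthase Hmgcs1 (569 to 1201 CPM). In droplets with under 5% mitochondrial UMIs the median of the cholesterol list was −0.20 and the log2 ratio of Hmgcs1 −0.46. There the median of all genes was −0.59. Of 17 bile acid synthesis genes past the filter, 13 were lower by any amount, 5 of them at least 2-fold, and none was at least 2-fold higher (median −0.57). Cyp8b1, needed to make cholic acid, went from 195 to 42.4 CPM and Cyp7b1 of the alternative route from 605 to 219.7, while Cyp7a1, the rate-limiting enzyme of the classical route, stood at 22.2 and 39.7 CPM. The uptake carriers Slc10a1 (634 to 265 CPM) and Slco1a1 (454 to 122 CPM) were lower and the ileal-type carrier Slc10a2 (37.7 to 112 CPM) higher.

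Of 55 amino acid breakdown genes past the filter, 42 were lower by any amount and 13 higher, with 11 at least 2-fold lower and 3 at least 2-fold higher (median −0.47). Among the lower were tryptophan dioxygenase Tdo2 (2496 to 827 CPM) and Csad of taurine synthesis (134 to 33.8 CPM). Ornithine aminotransferase Oat was higher, at 493 CPM in the control and 1839.8 at 24 h, then 740.3 at 48 h and 495 at 96 h, against 58.2 in P14, and tyrosine aminotransferase Tat stood at 1095 and 2573 CPM. In the droplets with under 5% mitochondrial UMIs, the log2 ratio of Tat was −0.11 against 1.23 and that of Oat 0.12 against 1.9. The median of all genes there was −0.59. In the urea cycle Cps1, the entry enzyme, stood at 3366 and 5127 CPM and Otc, the next enzyme, at 710.2 and 321 CPM, log2 ratios of 0.61 and −1.14. In droplets with under 5% mitochondrial UMIs the ratios were −1.63 and −2.05, so the direction of Cps1 turned. Of 22 urea cycle and nitrogen handling genes past the filter, 14 were lower by any amount, 5 of them at least 2-fold, and none was at least 2-fold higher (median −0.39). Glycogen synthase Gys2 went from 168 to 37.4 CPM.

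Drug-handling genes changed in both directions. Of 27 Cyp2 and Cyp3 genes past the filter 9 were at least 2-fold lower and 3 higher. Cyp2e1, an ethanol-oxidizing enzyme of pericentral cells, went from 2143 to 680.5 CPM and the periportal Cyp2f2 from 1882 to 500.4, whereas Cyp3a11 went from 1539 to 3585 and Cyp2c29 from 392 to 849 CPM. Among 47 genes of the list of conjugating enzymes past the filter, 12 were at least 2-fold lower and 6 higher. The list also holds a carboxylesterase, Ces3b, which is not a conjugating enzyme and went from 457 to 58 CPM. Among the higher were Gstm2, from 26.7 to 252 CPM, and Sult1a1, from 174 to 801 CPM. Zonal lists as wholes gave medians of −0.08 (pericentral) and −0.54 (periportal). Of 19 pericentral genes past the filter 4 were at least 2-fold higher and 6 lower, and of 24 periportal genes 1 and 5. Of 26 hepatocyte transcription factors past the filter, 5 were at least 2-fold lower (Cebpa, Onecut1, Ppara, Foxa1 and Tcf7l2) and 1 higher (Cebpb), with a median of −0.43. Cebpa, a factor that holds hepatocytes in rest, measured 352 CPM in the control and 72.5 at 24 h, then 81.2 at 48 h and 263 at 96 h, against 165 in P14. Among the adult libraries it was low at 24 h and 48 h, and the control was 4.86-fold above 24 h.

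**Figure D5:**
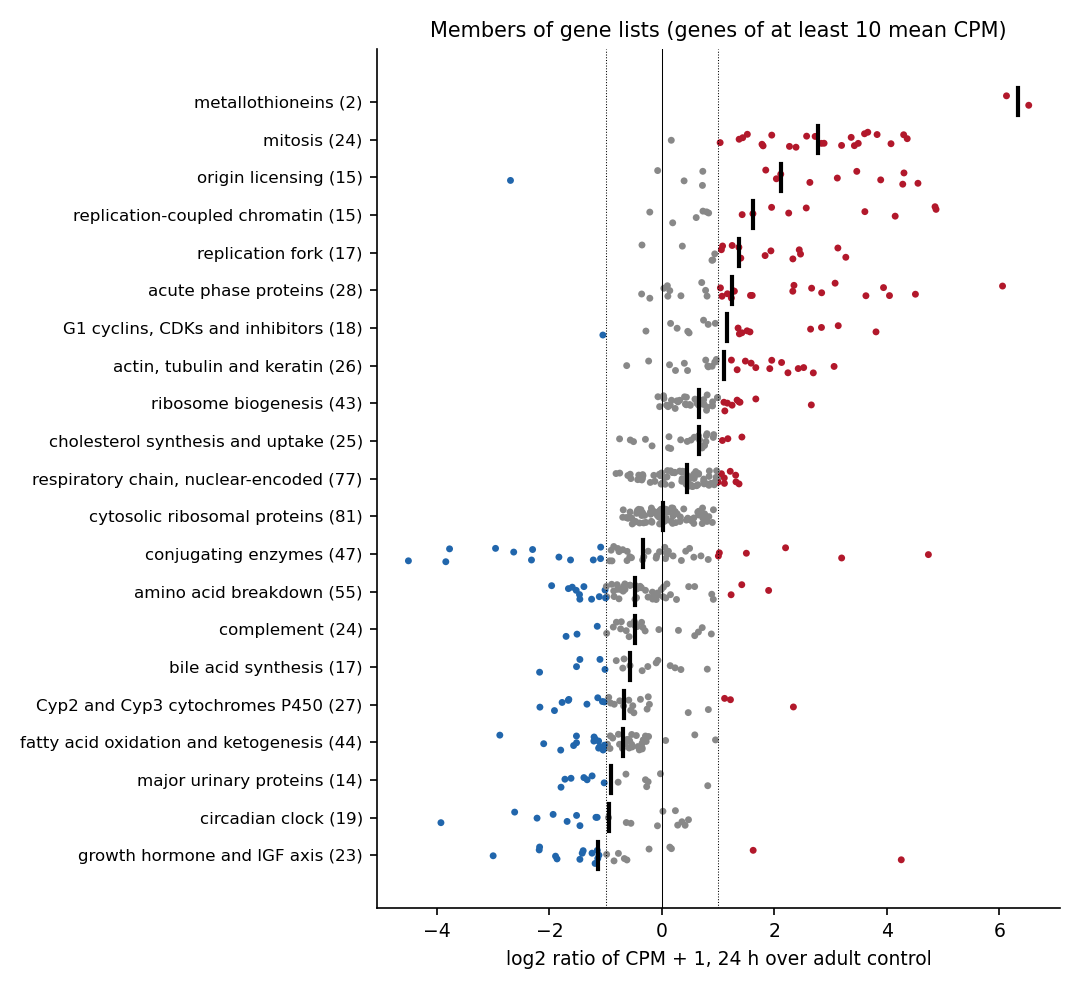
Ratio of each member of 21 gene lists (x axis, log2 of CPM + 1 at 24 h over CPM + 1 in the adult control), 1 point per gene of at least 10 mean CPM (their number in brackets on the y axis), red and blue past 2-fold, black bars the list medians and dotted lines 2-fold; 1 library a side. Metallothionein, mitosis and replication lists lie to the right, growth hormone, circadian and urinary protein lists to the left, and conjugating enzymes spread from Inmt (−4.50) to Gstm3 (4.74). Mitosis and replication members passed the filter mainly through the 24 h library and had to differ.

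Clock genes differed between the libraries as well. The clock output factor Dbp measured 152 CPM in the control and 9.07 at 24 h, then 3.22 at 48 h and 119 at 96 h, against 13.1 in P14. Its relative Tef went from 115 to 29.5 CPM, Per3 from 21.8 to 3.89, Bhlhe41 from 19.9 to 2.41 and the repressor Nr1d1 from 106 to 47.1 CPM. Arntl, the core activator, which peaks when Dbp is low, lay under the filter with 4.28 and 12.2 CPM, and Per1 stood at 10.1 and 13.7 CPM. Of 19 clock genes past the filter 9 were at least 2-fold lower and none higher. The hour of collection is not given, so a different hour and the operation cannot be told apart for these genes or for those under clock control.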

How the data were processed

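The deposited matrices hold whole-number UMI counts per gene and barcode, 1 matrix a library, with 31053 genes. Per the file headers they were written by Cell Ranger software version 3.0.2, and the submitters' processing notes name bcl2fastq 2.17.1.14, Cell Ranger, Seurat 3.1 and the mm10 genome; nothing else of the authors' filtering is given in the sources used here. Samples were grouped by title, and library totals ran from 80927744 to 136110607 UMIs.

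Hepatocyte counts were summed per library and scaled to CPM without the 13 mitochondrial genes. Ratios used a pseudocount of 1 CPM and genes of at least 10 mean CPM. With 1 library a group no model was fitted and no p-value made. Intervals are exact Poisson or binomial at 95% and cover counting error only. The ratio code was tested on simulated data. Cells were thinned to 5000 UMIs, and to 2000 for shares set beside lymphocytes (902 droplets in the control and 352 at 24 h, medians of 5937.5 and 4678 UMIs). Free RNA came from barcodes ranked 20001 to 60000. No doublet caller was run.

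Genes were named by rule: the 15 highest and 15 lowest ratios, the 12 largest gains and losses in CPM, up to 6 members of each of 46 lists with the largest ratios, a short fixed set, and the same extremes among genes of no list. Ces1d, Cyp2c29, Cyp3a11, Cyp7a1, Ghr, Igf1, Mcm7, Mcm10, Mdm2, Mtf1, Mup21, Nr1d1, Osmr, Slc10a1, Slc40a1, Sult1a1 and the low markers were named outside it after their values were seen, and some genes the rule picks are not reported here. The members and lists were chosen with earlier results of these data known. The limits of 3 genes and 20 CPM for cycling cells were set after the data were seen. A set of 13 alternatives was planned and 1 (no minimum of Alb, Apoa1 and Ttr) was added after the data were seen. Gene positions are from GENCODE M21 (31011 identifiers matched) and promoter windows from RefSeq GRCm38.p6. Tools were Python 3.11.15, numpy 2.4.6, scipy 1.17.1, pandas 2.3.3, matplotlib 3.10.9, R 4.3.3, and, for scaling alternatives, edgeR 4.0.16 and DESeq2 1.42.0.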

Additional observations from a re-analysis of the deposited data

How the results depend on the processing

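The counts past a fold depend on the filter and the pseudocount. The 486 genes at least 2-fold higher became 309 with a pseudocount of 10 CPM, 173 with a minimum of 50 mean CPM and 953 with every gene of at least 1 UMI. The 471 lower became 285, 227 and 778. For 4-fold, the 123 higher became 54, 34 and 263, and the 64 lower became 22, 30 and 97. Without cells with at least 2 replication or 3 mitosis genes 56 genes were at least 4-fold higher. The droplets with under 5% mitochondrial UMIs also had to pass the limits on UMIs and on Alb, Apoa1 and Ttr, and their cell types were not tested. In them the median of all genes was −0.59, with 2073 genes at least 2-fold and 470 at least 4-fold lower. There, among results past 2-fold, the sign turned for the median of the G1 list (−0.16), Cp (−0.42), Mup20 (0.37), Ctps (−0.056), Spp1 (−4.72), Ddx21 (−0.32), Dusp6 (−1.22), Tat (−0.11), Psmb3 (−0.23), Hmgcs1 (−0.46) and Hars (−0.23), and without cells with at least 2 replication or 3 mitosis genes for Glul (0.0046). In the droplets with under 5% it also turned for 21 named genes that were under 2-fold, Cps1 (−1.63) and Slc39a14 (−0.93) among them. Signs are taken against 0, not against the median of −0.59 in those droplets. Of the values that turned to below 0, the G1 list, Cp, Ctps, Ddx21, Tat, Psmb3, Hmgcs1 and Hars lay above that median. Spp1, Dusp6, Cps1 and Slc39a14 lay below it. The cause of these turns was not tested. Of 3113 values of the 238 named genes past 2-fold under the alternatives, 3102 kept their sign and 2987 stayed past 2-fold. The settings of 50 mean CPM and of at least 1 UMI leave the ratio of a gene as it was. A gene under the filter of a setting was left out of these counts, not counted as lost. Most of the 238 genes were named for large ratios in these same data, so the counts are a description and no test. Of 126 values of the 9 list medians past 2-fold, 125 kept their sign and 105 stayed past 2-fold. No paired analysis was possible because each group has 1 library, and no library could be left out. With 1 library a side, the spread between animals, the library code and the hour of collection cannot be told apart from the operation. At 10 mean CPM a gene rests on about 133 UMIs in the control and 195 at 24 h, and genes under that level, where the report names them, rest on fewer.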

Other observations

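Other stress programs are given here. Of 26 genes of the unfolded protein response, which adjusts protein folding in the endoplasmic reticulum, none passed 2-fold in either direction (median −0.03). Heat shock and immediate early genes, which cell dissociation is known to induce, had a median of −0.22 with 2 of 22 at least 2-fold higher and 5 lower, against 6.89% and 6.67% of all genes. The chaperones Hspa1b (52.3 to 10.5 CPM) and Hspb1 (19.6 to 3.48 CPM) were lower at 24 h, and the transcription factor Klf6 higher (8.79 to 22.2 CPM). Among antioxidant genes, the sulfiredoxin Srxn1 stood at 21.9 and 74.5 CPM and catalase, Cat, at 4004 and 1513 CPM. Interferon-stimulated genes had a median of −0.33, with Zbp1 from 5.63 to 20.1 CPM and Irf1 from 20.7 to 7.38 CPM.

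Of 27 growth factor receptor and activin axis genes past the filter, 3 were at least 2-fold higher (Id1, Id3 and Cyr61) and 5 lower, with a median of −0.21, against 6.89% and 6.67% of all genes. The Wnt receptors Fzd7 (31.2 to 6.3 CPM) and Fzd4 (30.7 to 6.82 CPM), the neuregulin receptor Erbb3 (112 to 34.5 CPM) and the hepatocyte growth factor receptor Met (63.2 to 31.1 CPM) were lower at 24 h. The carriers of the blood were mixed: the corticosteroid carrier Serpina6 went from 68.9 to 10.9 CPM, and the apolipoprotein Apoa4 from 54 to 161 CPM. In glycolysis, pyruvate kinase Pklr went from 60.8 to 19.7 CPM and Pfkfb3, which makes an activator of the pathway, from 18.3 to 45.8 CPM.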
